A study of Mus musculus with 80 samples.

Results

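The comparison described here is that of mouse embryonic stem cells (ESCs) labelled UHRF1 KO with their wild-type control, UHRF1 WT, 24 h after both were moved from serum medium to 2i. Its members are the 500-bp tiles of the autosomes that held 20 or more methylation calls at 3 or more cytosine positions in each of the 4 libraries, 2 of the KO and 2 of the WT. This left 29695 of the 416073 tiles with any call in these libraries, and compares with 132157 tiles that pass in at least 1 of the 35 usable libraries of the E14 and UHRF1 lines. The choice used depth and no methylation value, but deeper tiles were less methylated, so it favoured tiles of low level.

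DNA methylation was measured by reduced representation bisulfite sequencing (RRBS), which reads CpG-rich fragments. The series holds 80 samples in all, and the UHRF1 lines were sampled in serum and after 24, 48, 72, 96 and 168 h of 2i. Both lines are labelled with the E14 background, the WT as wild-type and the KO as UHRF1-/-. Both groups were grown in serum medium with LIF and then in serum-free N2B27 with LIF, the MEK inhibitor PD0325901 and the GSK3 inhibitor CHIR99021. The study describes the Uhrf1 deletion as inducible, from a floxed allele (Uhrf1 fl/fl), with a tamoxifen-inducible Cre that recombined it shortly before the experiment. The sources used here do not say whether the WT cells received tamoxifen. No RNA of the UHRF1 lines was measured, so neither the loss of Uhrf1 nor the ESC identity of these cells was checked here.

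UHRF1 binds hemimethylated CpG sites behind the replication fork and brings the maintenance methyltransferase DNMT1 to them. Without this step the new strand stays unmethylated, and methylation is diluted as cells divide. UHRF1 also reads methylated lysine 9 of histone H3, and in ESCs the move to 2i is known for a broad loss of DNA methylation.

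The depth of the libraries differed with genotype. WT replicates 1 and 2 held 16434167 and 16008315 calls, and KO replicates 1 and 2 held 4587826 and 3208182. The median tile had 271 and 261 calls in the WT against 76 and 52 in the KO. Nothing in the labels says whether the 2 replicates of a group were separate cultures. P-values thus rest on the spread between these libraries, which may be technical. For single tiles this spread was mostly shared over many tiles, not the tile's own. Calls of 1 read or of copies of 1 molecule are not independent, and the limits given for a count of 0 cover counting error only. An SD is the spread between libraries, and an SE of a tile's difference comes from the dispersion of the model.

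A tile's sequence can be shown where it holds a gene's promoter, and 5 promoters of genes of the male germ line are shown first, since the values of single loci are easiest to follow there. The sequences below are RefSeq promoter windows of build GRCm38.p6, from 250 bases before to 50 after the gene start, 5′ to 3′ on the gene's strand. The CpG sites read in all 4 libraries are in capitals. The files use build NCBIM37, and a window was tied to positions in the files by the spacing of its CpG sites, not by converting coordinates. The first 4 windows were picked for their fall and the last because it fell little. The picks were made after the values were seen.

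Hormad1, chr3:95559429-95559728, plus strand: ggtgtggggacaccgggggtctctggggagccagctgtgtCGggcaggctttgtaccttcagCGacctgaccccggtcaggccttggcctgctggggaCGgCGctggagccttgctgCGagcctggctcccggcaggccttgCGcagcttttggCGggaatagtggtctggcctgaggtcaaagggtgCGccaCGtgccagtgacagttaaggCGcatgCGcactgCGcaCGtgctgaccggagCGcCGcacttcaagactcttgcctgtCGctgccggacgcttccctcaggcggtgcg
Naa11, chr5:97392281-97392580, minus strand: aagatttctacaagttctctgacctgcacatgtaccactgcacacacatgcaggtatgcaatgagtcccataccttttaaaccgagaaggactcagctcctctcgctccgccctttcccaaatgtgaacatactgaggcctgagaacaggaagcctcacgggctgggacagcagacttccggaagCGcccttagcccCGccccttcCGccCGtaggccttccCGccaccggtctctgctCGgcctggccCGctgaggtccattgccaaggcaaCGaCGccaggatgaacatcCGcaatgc
Papolb, chr5:142530027-142530326, minus strand: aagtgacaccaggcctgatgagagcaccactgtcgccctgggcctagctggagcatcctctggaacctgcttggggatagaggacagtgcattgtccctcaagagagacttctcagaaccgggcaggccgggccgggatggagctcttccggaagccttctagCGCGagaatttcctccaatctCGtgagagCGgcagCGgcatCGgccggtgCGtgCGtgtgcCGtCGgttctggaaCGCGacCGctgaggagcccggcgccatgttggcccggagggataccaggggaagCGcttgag
Sycp1, chr3:102936051-102936350, minus strand: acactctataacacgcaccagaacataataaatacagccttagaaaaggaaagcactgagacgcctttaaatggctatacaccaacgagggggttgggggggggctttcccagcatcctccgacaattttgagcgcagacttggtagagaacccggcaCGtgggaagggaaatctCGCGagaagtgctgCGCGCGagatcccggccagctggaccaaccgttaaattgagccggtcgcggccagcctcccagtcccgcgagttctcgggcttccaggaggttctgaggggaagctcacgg
Mael, chr1:166238695-166238994, minus strand: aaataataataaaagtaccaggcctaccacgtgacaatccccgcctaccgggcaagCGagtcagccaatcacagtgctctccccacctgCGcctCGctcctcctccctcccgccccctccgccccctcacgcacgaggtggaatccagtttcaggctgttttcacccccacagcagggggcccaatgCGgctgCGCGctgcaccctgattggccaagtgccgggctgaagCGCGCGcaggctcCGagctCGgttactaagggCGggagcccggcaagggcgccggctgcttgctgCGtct

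Within these 300 bases, the Hormad1 window was methylated at 80.8% and 79.3% of calls in the WT and at 46.8% and 51.3% in the KO, with 80 to 386 calls a library at 16 of its 24 CpG sites. Hormad1 encodes a protein of the meiotic chromosome axis. Naa11 encodes a testis N-terminal acetyltransferase, and its tile also holds a promoter of 4930467D21Rik. The Naa11 window stood at 64.6% and 61.8% in the WT and 17.5% and 29.4% in the KO (34 to 189 calls). The Papolb window, of a testis poly(A) polymerase, stood at 40.4% and 47.2% in the WT and 18.1% and 12.9% in the KO (140 to 500 calls). The Sycp1 window, of a component of the synaptonemal complex, stood at 90.3% and 91.7% in the WT, but its KO replicates lay apart at 55.0% and 76.9% (26 to 279 calls). In these 4 windows both KO libraries were below both WT libraries. In the window of Mael, a piRNA pathway gene, the WT stood at 45.8% and 47.2% and the KO at 38.1% and 45.3% (63 to 233 calls), so the groups nearly touched. The windows of called promoters and of the other methylated promoters had like numbers of CpG sites, with a median of 14 in 46 windows on tiles called lower and 15.5 in 99 windows whose WT level was 20% or more without a call. The median over all 5066 placed windows, most of them unmethylated, was 26.5. The letters CACGTG, which read the same on both strands, stood in 6 of the 46 windows (13.0%), in 15 of the 99 (15.2%), in 10.2% of the 5066 placed windows and in 7.14% of all 31396 windows of the table.

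The KO was less methylated than the WT over the tiles as a whole after 24 h of 2i. The mean over the 29695 tiles was 17.5% and 17.7% in WT replicates 1 and 2 and 13.1% and 12.9% in KO replicates 1 and 2. The groups did not overlap, and the mean was 17.6% ± 0.11 in the WT and 13.0% ± 0.13 in the KO (SD, n = 2), a difference of -4.59 points. The exact two-sided permutation test gave p = 0.333, the smallest that 2 against 2 libraries allow. Most tiles were unmethylated in both genotypes, with a median over tiles of 1.03% ± 0.14 in the WT and 1.08% ± 0.20 in the KO (SD, n = 2). The size of this mean also followed the depth required of a tile. It was -8.60 points with 10 calls per tile, -0.825 with 50 calls and -1.22 when all calls of the tiles were pooled. Tiles just outside the depth limit, with 15 to 19 calls in the shallowest library, had 56.2% in the WT and 42.2% in the KO, and those just inside it, with 20 to 24, had 46.7% and 35.0%.

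Fewer tiles were highly methylated in the KO, and more lay in the middle range. Tiles of 80% or more numbered 3589 and 3599 in the WT libraries and 1049 and 1131 in the KO libraries. Tiles between 20% and 80% numbered 2919 and 2935 in the WT and 4632 and 4481 in the KO. Tiles of 20% or less went from 23187 and 23161 in the WT to 24014 and 24083 in the KO.

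Tile by tile, 2580 tiles were called lower in the KO, 8.69% of the 29695 tested, and 21 were called higher, 0.0707% (quasi-binomial model, Benjamini-Hochberg adjusted p under 0.05 and 20 points or more). Without a minimum difference, 3313 were lower (11.2%) and 148 higher (0.498%). In 2574 of the 2580 both KO libraries lay below both WT libraries, which the call nearly fixes, against 39.1% of all tiles. Their median fall was 29.0 points (-29.0), from a median of 85.3% in the WT to 51.9% in the KO. The KO mean was at or under 50% of the WT mean in 714 of them (27.7%), and was 10% or less in 121. The count leaned on the dispersion shared between tiles. That dispersion was taken from tiles whose level over all calls was 10% to 90%, a choice made after a first fit had been seen, and with all 29695 tiles in it, near-empty ones included, 0 tiles passed the adjustment (quasi-binomial model, smallest adjusted p 0.0939, 6541 tiles at an unadjusted p under 0.05). Limma on log2 ratios called 1717 lower (5.78%) and 14 higher (0.0471%), and 1703 tiles were called lower by both. With the WT libraries thinned to the depth of the KO, 1996 were called lower and 21 higher. Leaving out 1 library gave 1022 lower tiles without WT replicate 1, 1337 without WT replicate 2, 735 without KO replicate 1 and 1033 without KO replicate 2.

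**Figure D1:**
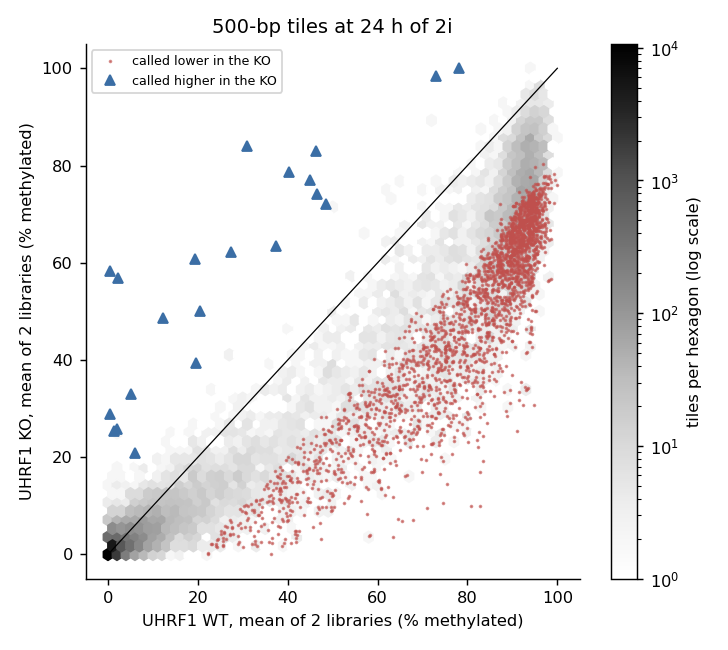
Methylation of each of the 29695 tiles at 24 h of 2i, mean of the 2 UHRF1 WT libraries on the horizontal axis against mean of the 2 UHRF1 KO libraries on the vertical axis, both in percent, with grey hexagons shaded by the number of tiles on a log scale. The 2580 tiles called lower in the KO (red points) run below the diagonal along the whole range of WT levels above 20%, and the 21 called higher (blue triangles) are scattered above it.

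Few of the called tiles could be followed along the chromosome. Leaving out chromosome 18, from which no tile was named, 2520 tiles were called lower. Only 266 of them had a tested tile next to them, and 115 lay in 54 runs of 2 or more called neighbours. The longest run held 4 tiles, at chromosome 11, 60001501 to 60003500 (NCBIM37). It stood at 66.2% and 65.3% in the WT and 35.2% and 42.2% in the KO, with 185 to 861 calls. The other 2 named held 3 tiles each, a length that further runs shared, since 6 runs held 3 or more tiles. That at chromosome 11, 116083001 to 116084500, went from 52.5% and 48.8% to 23.3% and 23.2%, and that at chromosome 7, 151596001 to 151597500, from 83.3% and 86.2% to 50.5% and 53.2%. On each of the 19 autosomes, tiles of 60% or more in E14 serum were lower in both KO libraries than in both WT libraries on average, by 15.7 (-15.7) to 21.6 points (-21.6).

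The well-covered tiles with the largest falls were then read one by one. They are the 8 with the lowest difference among 208 called tiles with 50 or more calls in every library and no overlap of the groups. None of them lies in a placed promoter window, and no annotation of build NCBIM37 was used here, so their genes are not given. The largest fall was at chromosome 11, 77560501 to 77561000. It stood at 80.4% (158 calls) and 77.9% (140) in the WT and at 27.3% (55) and 22.6% (53) in the KO, a pooled difference of -54.2 ± 5.73 points (SE; quasi-binomial adjusted p 9.63e-07). The tile at chromosome 5, 109985001 to 109985500, stood at 65.1% and 58.2% in the WT and 11.5% and 12.9% in the KO (-49.2 ± 4.04). In both, the replicates of a genotype lay close together. At chromosome 7, 52632001 to 52632500, the WT stood at 90.1% and 91.8% and the KO replicates lay apart at 56.3% and 34.7% (-47.5 ± 5.26). The same held at chromosome 10, 80101501 to 80102000, with 80.6% and 77.1% in the WT and 43.8% and 21.1% in the KO (-45.6 ± 6.11). The tiles at chromosome 17, 29979501, chromosome 4, 133042501, and chromosome 13, 48585501, fell by 44.1, 44.0 and 43.8 points. In these 3 the KO libraries ranged from 18% to 38.2% and the WT libraries from 61.2% to 83.6%.

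Of the 8, the tile at chromosome 1, 140738001 to 140738500, was the lowest in the KO. It stood at 45.6% and 49.1% in the WT and at 4.35% and 2.11% in the KO at 24 h, but it was already at 6.46% in KO serum against 62.2% in WT serum, and at 1.96% in E14 serum. Its KO level at 96 h was 3.87%. The other 7 tiles stood between 35.8% and 67.6% in KO serum and between 66.7% and 94.8% in WT serum, and in each the KO mean at 24 h was below that of KO serum, though the KO serum libraries lay far apart in 4 of the 7, at chromosomes 11, 7, 17 and 10 (SD 14.4, 12.6, 12.3 and 11.5 points, n = 2).

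Tiles were also grouped by the number of cytosine positions read in the library that read fewest. This number goes with depth. In tiles of 60% or more in E14 serum, the median calls of the shallowest library were 22 at 3 to 5 positions and 81.5 at 20 or more. In tiles of 60% or more in E14 serum, the KO kept 79.9% of the WT level in 823 tiles of 3 to 5 positions, 79.3% in 1855 tiles of 6 to 9, 79.1% in 600 tiles of 10 to 14, 77.2% in 87 tiles of 15 to 19 and 77.8% in 28 tiles of 20 or more. The 4 called tiles with the most positions among those of 50 or more calls, whose fall the selection fixes, were at chromosome 8, 72406501 and 107898501, chromosome 7, 52263001, and chromosome 17, 56651501. Their pooled differences were -22.6, -23.0, -24.8 and -28.3 points. None of these 4 passed limma on log2 ratios (adjusted p 0.0700 to 0.123).

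How far a tile fell went with how methylated it was to begin with. To group tiles by a measure that the comparison did not use, the level in the serum libraries of E14, a separate wild-type line of the series, was taken for the 29471 tiles read there. In the 1131 tiles of 20% to 40% in E14 serum, the 2 WT libraries stood at 49.0% and 49.2% and the KO libraries at 29.0% and 28.1%, a difference of -20.6 points. It was -23.9 points in the 1129 tiles of 40% to 60%, with 71.2% and 71.8% in the WT and 47.7% and 47.6% in the KO. It was -21.6 points in the 1365 tiles of 60% to 80%, with 85.4% and 85.6% against 64.0% and 63.9%. In the 2028 tiles of 80% or more the WT stood at 92.3% in each library and the KO at 76.2% and 75.7%, a difference of -16.4 points. In the 23818 tiles below 20% the difference was -0.89 points, from 2.92% ± 0.11 to 2.03% ± 0.09 (SD, n = 2). In the 4 higher classes the gap was far larger than the spread between libraries (SD of the difference 0.17 to 0.72 points), but with 2 against 2 libraries the exact permutation p was 0.333 in each.

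As a share of the WT level, the KO kept 58.1%, 66.6%, 74.7% and 82.3% in these 4 classes, so among tiles of 20% or more the part that stayed in the KO rose with the E14 serum level. In the class below 20% it was 69.5%. Tiles called lower made up 42.3%, 56.3%, 49.5% and 28.5% of the classes, beside the 8.69% over all tiles. The absolute gaps depend on the line that sets the classes. By the serum library of the UHRF1 WT itself, of which only 1 was usable, the gaps were -8.98, -15.5, -22.2 and -21.2 points, and the KO kept 61.5%, 64.8%, 65.4% and 76.1% of the WT level. In tiles below 20% by this library it kept 82.5%, more than in any class above. The rise of the kept share from 20% upward was thus seen with both lines, but the gap in points was largest at 40% to 60% with E14 and at 60% to 80% with the UHRF1 WT.

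**Figure D2:**
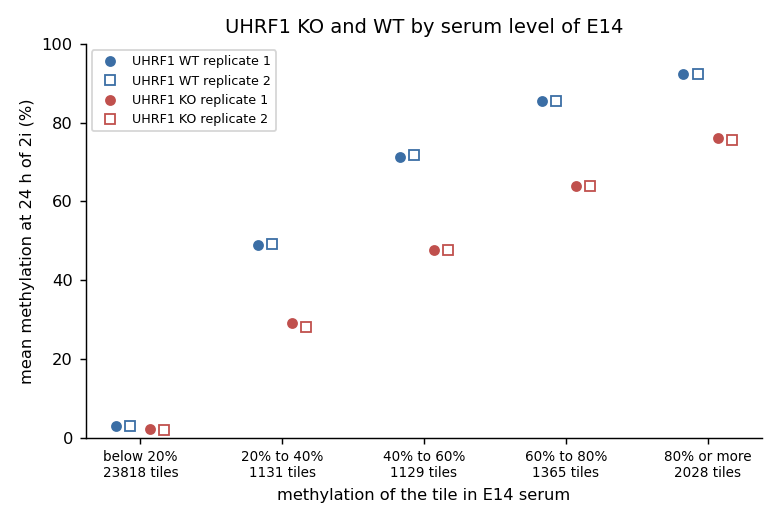
Mean methylation at 24 h of 2i in percent for each of the 4 libraries (vertical axis), with tiles grouped by their level in E14 serum (horizontal axis, with the number of tiles). In each class from 20% upward both KO points lie 16.4 to 23.9 points below the WT on average, and the 2 replicates of a genotype nearly coincide.

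Part of the difference was there before 2i. In tiles read in the 1 usable WT serum library and in both KO serum libraries, the KO was already 16.0 points lower in serum (-16.0) in the 872 tiles of the 20% to 40% class, which is 81.0% of the gap seen at 24 h in the same tiles. In the 1167 tiles of 80% or more the gap in serum was only -4.67 points, 28.8% of that at 24 h. The classes between gave 64.3% and 44.1%. Methylation then fell in both genotypes within 24 h. In the highest class the WT libraries kept 96.6% and 96.5% of the serum level and the KO kept 83.9% and 83.4%. In the 20% to 40% class the WT kept 87.1% and 87.3% and the KO 73.1% and 71.5%. Because the WT serum value rests on 1 library, its error is not known.

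The change in the gap between serum and 24 h was tested tile by tile as an interaction in the 25998 tiles read in the 7 libraries. The quasi-binomial model tests this on the log odds of methylation, not on points, and the 20 points are a further filter. Few tiles passed. KO minus WT was lower at 24 h than in serum in 11 tiles (0.0423%) and higher in 3 (0.0115%; quasi-binomial model, adjusted p under 0.05 and 20 points). Limma called 0, with 1265 tiles at an unadjusted p under 0.05 against 1109 in the quasi-binomial model. Of the 1109, KO minus WT was lower at 24 h in 769 and higher in 340. Neither the 1109 nor the 1265 exceeds the number that a threshold of 0.05 passes where no tile differs and p-values are evenly spread. Most tiles, 22213, stood below 20% in E14 serum, and p-values of near-empty tiles need not be evenly spread. These counts thus cannot show that the gap stayed the same. The median change of KO minus WT was -0.11 points over all 25998 tiles and -11.5 over those of 60% or more in E14 serum. A lower difference did not mean that a gap already there had grown. In 10 of the 11 tiles both KO serum libraries lay above the WT serum library. Of the 3, the Rab24 promoter tile turned from 56.3% in WT serum against 20% and 33.3% in KO serum to 0% (which allows 5.56%) and 2.63% in the WT against 32.5% and 18.2% in the KO. Among the 14 called tiles the single WT serum library lay more than 10 points below both WT libraries of 24 h in 9 and above both in 3. At chromosome 11, 22872001 to 22872500, for example, WT serum stood at 2.78% and the WT at 24 h at 44.0% and 37.8%, against 42.2% and 20.1% in KO serum and 20% and 9.86% in the KO at 24 h. The next tile holds a promoter of Commd1, the host gene of the imprinted Zrsr1. It went from 1.23% in WT serum to 42.1% and 40.9%, while the KO went from 19.3% and 24.8% to 31.7% and 12.3%. The part of this library in the calls was not tested.

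The tiles called lower at 24 h were mostly lower in the KO at the other times up to 96 h, in libraries that took no part in the choice. In serum both KO libraries lay below the WT library in 1469 of 1741 (84.4%, against 43.3% of all tiles). At 48 h both KO libraries lay below both WT libraries in 1729 of the 1768 tiles read there (97.8%, against 36.2% of all tiles), and at 72 h in 2535 of 2568 (98.7%, against 41.2%). At 96 h this held in 2328 of 2561 tiles (90.9%, against 32.8%). At 168 h it held in 188 of 1441 (13.0%, against 6.74%), and both KO libraries lay above both WT libraries in 597 (41.4%, against 25.3% of all tiles). In the 1017 called tiles read in all 23 usable libraries of the UHRF1 lines, serum levels were 79.9% in the 1 WT library and 62.1% ± 0.45 in the KO (SD, n = 2), a gap that is 59.2% of the one at 24 h. The 24 h levels were 74.0% ± 0.21 and 44.0% ± 0.46. By 48 h the WT mean was 67.5% ± 0.29 and that of the KO 34.4% ± 0.32. After 168 h their order was the other way round, with 26.0% ± 0.60 in the WT and 30.4% ± 0.08 in the KO. Methylated tiles that were not called also had a gap on these days. In 1162 of them, of 20% or more in E14 serum, the gap was -11.6 points at 24 h, -22.6 by 48 h, -23.9 by 72 h and -21.4 by 96 h, against -30.03, -33.1, -29.2 and -22.4 in the called tiles. At 168 h the gap was 0.0662 points in the tiles not called and 4.47 in the called ones. The KO libraries of 168 h spread their calls over more positions. KO replicate 1 read 1720507 positions on 4594629 calls at 168 h, against 1188747 positions on 4587826 calls at 24 h. KO replicate 2 of 168 h read 2580559 positions on 10818220 calls. The part of this in the KO levels at 168 h was not tested.

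The 24 h gap was close to its widest in the 20% to 40% class and far from it in the most methylated tiles. Over tiles read at all times, the gap of the 20% to 40% class was -19.1 points on the first day, -21.7 by 48 h and -16.9 by 72 h. In the class of 80% or more it widened from -16.2 points on the first day to -28.5 on the next and -33.0 by 72 h, and was -32.7 after 96 h. The WT of this class went from 92.1% ± 0.10 at 24 h to 73.8% ± 0.21 at 96 h, and the KO from 75.8% ± 0.94 to 41.1% ± 0.84 (SD, n = 2). At 168 h the WT stood at 57.1% ± 1.28 and the KO, having risen, at 49.4% ± 0.60, a gap of -7.69 points. In the 20% to 40% class KO minus WT was then 7.81 points, with the KO above. The change of the gap from 24 to 48 h was called in 1 of 25993 tiles (0.00385%; quasi-binomial model, adjusted p 0.0414), at chromosome 5, 125772501 to 125773000, and in 0 by limma (745 and 1284 tiles at an unadjusted p under 0.05). That tile stood at 94.1% and 91.7% in the WT and 97.5% and 95.8% in the KO at 24 h, and at 95.6% and 93.8% against 39.3% and 41.7% at 48 h. The call was lost when any 1 of the 8 libraries was left out.

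**Figure D3:**
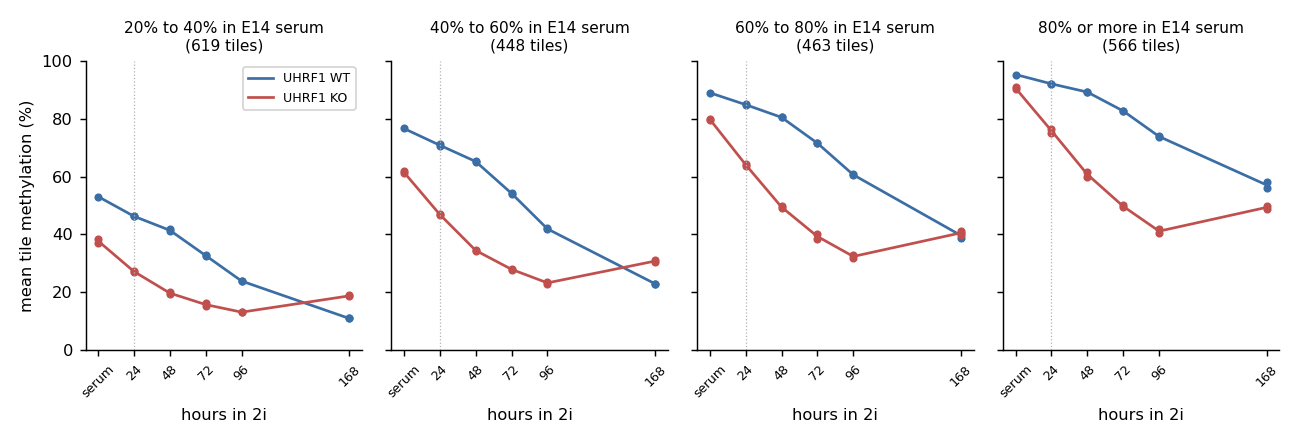
Mean tile methylation in percent (vertical axis) against time in 2i (horizontal axis, serum drawn at 0) for UHRF1 WT (blue) and KO (red) in 4 classes of E14 serum level, over tiles read in all 23 libraries; points are libraries, with 1 for WT serum, and lines join the means. At 24 h (dotted line) the gap is -19.1 points in the lowest class shown and -16.2 in the highest, where it goes on to -33.0 at 72 h. At 168 h KO minus WT is 7.81 points in the lowest class shown and -7.69 in the highest.

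The most methylated tiles of the KO at 24 h were followed over the next days. Among 58 tiles of 80% or more in E14 serum with 50 or more calls in each of the 4 libraries and reads in all later KO libraries, the 5 with the highest KO mean at 24 h were picked for that value, so it is given as a description. Their KO means were 92.6% to 98.7% in serum and 89.8% to 93.1% at 24 h, and each was lower at 24 h than in serum. The tile at chromosome 13, 38288001 to 38288500, stood at 91.5% and 98.2% in the WT and 89.8% and 96.4% in the KO at 24 h. Its KO level was 71.7% at 48 h and 59.2% at 96 h, against 93.4% and 84.2% in the WT. After 168 h its means were 75.5% ± 19.5 in the KO and 76.9% ± 8.88 in the WT (SD, n = 2). The tile at chromosome 8, 14962501 to 14963000, went from 92.6% and 90% in the KO at 24 h to 76.1% ± 7.27 at 48 h and 58.2% ± 22.6 at 96 h. The WT went from 94.7% and 96.1% to 94.0% ± 0.04 and 79.1% ± 6.97 (SD, n = 2), so the KO libraries lay far apart at 96 h. At 168 h the KO stood at 57.0% ± 7.77 and the 1 WT library at 54.0%. At chromosome 7, 17607501, the KO replicates stood at 97.4% and 83.6% at 24 h and their mean was 46.0% at 48 h. By 168 h the KO mean of this tile was 54.0%, against 61.0% in the WT. At chromosome 1, 85144001, and chromosome 8, 93100001, the KO means at 48 h were 73.7% and 75.5%, against 91.9% and 97.1% in the WT. In the second the KO libraries lay far apart at 48 h and at 168 h. KO means of these tiles after 168 h were 59.4% and 73.5%, against 87.5% and 84.2% in the WT. The last of them was already lower in the KO at 24 h (-8.54 points, quasi-binomial adjusted p 0.0210), short of the 20 points of a call, but without 1 library this adjusted p was 0.0839 to 0.344.

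Promoters could be placed for 4650 genes, on 5614 of the tiles. As CpG-rich promoters usually are, they were mostly unmethylated: 133 promoter tiles (2.37%) stood at 20% or more in the WT, against 26.6% of the other tiles. Of these 133, the KO mean was lower in 128 and 41 were called lower (30.8%, against 39.7% of other tiles of 20% or more and 8.69% of all tiles). Both sets of 20% or more were chosen by the WT level of this comparison, which favours a lower KO, and the 8.69% had no such filter. The median difference was -15.7 points in the 133 and -18.6 in the other methylated tiles.

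Of the 41 called promoter tiles, a few more are described singly, picked after their values were seen. How many of the 41 belong to genes of the germ line was not counted beyond the list given next. They are those of Hormad2, a partner of Hormad1 on the meiotic axis, Hsf5, a heat shock factor of spermatocytes, Slc25a31, a germ cell ADP/ATP carrier, Tnp1, which replaces histones in spermatids, and Spag8, a sperm antigen. The Hormad2 tile stood at 67.8% and 63.4% in the WT and 34.2% and 21.2% in the KO (33 to 153 calls, -37.4 ± 7.30 points, quasi-binomial adjusted p 0.00138). The Hsf5 tile stood at 79.2% and 84.7% in the WT and 43.8% and 35.9% in the KO (-42.8 ± 7.69, adjusted p 0.000269, same model). In neither did the genotypes overlap. The Tnp1 tile, which a neighbouring transcript of unknown role shares, had KO replicates far apart, at 42.9% and 70.8%, against 87.8% and 92.4% in the WT. The tile of Spag8 went from 72.0% and 67.5% to 37.5% and 41.7%.

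In a list of 15 germ line genes that are usually held silent by promoter methylation, 6 could be placed, on 7 tiles. The KO was lower in all 7, with a median of -19.8 points against -15.7 in promoter tiles of 20% or more in the WT, -18.6 in other such tiles and -0.36 over all tiles. The sets of 20% or more were chosen by that WT level at 24 h, which favours a fall. Of the 7 tiles 4, of 3 genes, were called (57.1%, against 30.8% and 39.7% of the methylated promoter and other tiles). The 7 stood at 24.1% to 65.1% in E14 serum. In the classes of 20% to 40%, 40% to 60% and 60% to 80% there, 42.3%, 56.3% and 49.5% of tiles were called lower. The median differences in these classes were -20.3, -25.2 and -21.5 points, so the germ line tiles lay near tiles of like level. Hormad1 was called in both of its tiles. One went from 78.7% and 79.3% to 42.4% and 41.5%, a difference of -36.9 ± 5.67 points (SE; quasi-binomial adjusted p 4.34e-05). The other went from 83.9% and 82.2% to 55.9% and 69.1% (-21.2 ± 5.77, adjusted p 0.00651, same model). Slc25a31 went from 79.1% and 80.2% to 48.5% and 71.2%, and Sycp1 had the values of its window above. The members not called were Dazl, Tdrd1 and Mael. Dazl, an RNA-binding protein of germ cells, stood at 79.1% and 90.2% in the WT and 62.2% and 68.7% in the KO, short of 20 points by a little (-19.5 ± 5.67, adjusted p 0.0102, same model). Tdrd1, a piRNA pathway gene, stood at 49.7% and 49.4% against 42.4% and 35.8%, and Mael at 42.9% and 46.3% against 39.6% and 40.6%. The errors of these tiles were wide, and Mael differed by -4.73 ± 4.78 points (SE, adjusted p 0.690).

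**Figure D4:**
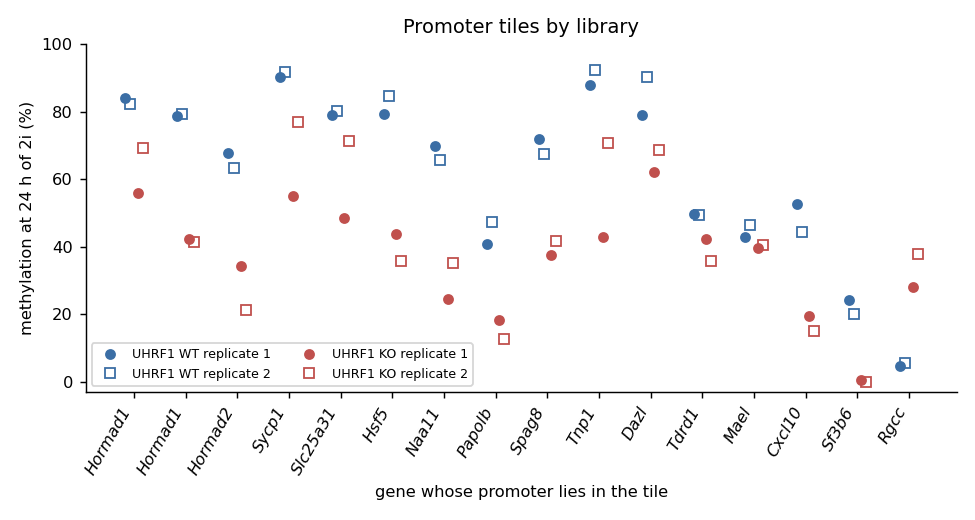
Methylation at 24 h of 2i in percent (vertical axis) of 16 promoter tiles, named by gene on the horizontal axis, with 1 point per library. In 15 of the tiles both KO points lie below both WT points, by a wide margin at Hsf5, Naa11 and one Hormad1 tile and narrowly at Mael, and at Rgcc they lie above. The genes were picked after the values were seen. Of the 15 tiles, all but those of Dazl, Tdrd1 and Mael were called lower, which nearly fixes this order. It held in 39.1% of all tiles.

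Some other called promoters were these. Cxcl10, a chemokine, went from 52.7% and 44.4% to 19.6% and 15%. Fbp2, a muscle fructose bisphosphatase, had the largest fall of a promoter tile, from 78.7% and 89.9% to 37.5% and 16.7%, on 24 to 119 calls (-56.0 ± 8.39 points, quasi-binomial adjusted p 6.90e-05). Acta1, skeletal muscle actin, went from 83.7% and 93.2% to 60% and 62.1%. The tile of Sf3b6, a splicing factor subunit, was nearly empty in the KO, with 24.4% and 20% in the WT and 0.562% in KO replicate 1. KO replicate 2 had no methylated call at Sf3b6, which allows a level of up to 2.97%. This promoter was already at 0.376% in KO serum and at 18.5% in WT serum.

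The placed promoter tiles of the other lists stood low in the WT at 24 h. Of 22 imprinted genes only Gnas and Grb10 could be placed, on 5 tiles, none called, with WT levels from 0.434% to 12.7%. The highest of these, at Gnas, stood at 11.4% and 14% in the WT and 1.41% and 0% in the KO (-11.7 ± 2.78 points, quasi-binomial adjusted p 0.0219), where a count of 0 allows up to 9.68%. In serum this Gnas tile stood at 36.7% in the WT and 2% in the KO, with 1 library each. The tiles at chromosome 2, 174124501 and 174126001, lie between placed Gnas tiles and were more methylated. At 24 h the first stood at 43.4% and 49.9% in the WT and 42.2% and 43.9% in the KO. The second stood at 35.6% and 51.5% in the WT and 44% and 40% in the KO. In the WT serum library they stood at 11.4% and 14.6%. The KO serum libraries stood at 71.7% and 51.0% in the first and at 62.5% and 57.4% in the second. Both tiles are among the 14 called for a change between serum and 24 h. Of 11 pluripotency genes Klf2 and Klf4 could be placed, on 3 tiles of 0.124% to 0.761% in the WT, none called. One Klf4 tile read 0% in KO replicate 1, which allows 5.88%, and 15.2% in replicate 2, so its KO libraries differed by more than the genotypes did.

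The 21 tiles that were higher in the KO were mostly higher there in serum already. Serum libraries of both genotypes read 17 of them, and both KO serum libraries lay above the WT serum library in 16 (94.1%, against 14.6% of all tiles). Over the 9 of them read at all times, the serum level was 61.5% ± 1.12 in the KO (SD, n = 2) and 25.6% in the single WT library. The 24 h level was 59.0% ± 1.32 in the KO and 27.2% ± 1.95 in the WT. The KO still stood at 36.2% ± 1.05 at 168 h, against 15.4% ± 2.73 in the WT.

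The largest rise among them lay at chromosome 7, 7252001 to 7252500. It had 1 methylated call of 662 and 5 of 651 in the WT, or 0.151% and 0.768%. The KO had 56.2% of 981 calls and 60.4% of 641 (57.4 ± 1.56 points, quasi-binomial adjusted p 2.22e-21). KO depth here was like that of the WT or above it, while the median tile had 76 and 52 calls in the KO against 271 and 261. The cause of this unusual depth was not tested. KO serum stood at 59.0% and WT serum at 1.11%, with E14 serum between them at 37.0%. The promoter tile of Rgcc, a regulator of the cell cycle, stood at 4.75% and 5.51% in the WT and 28.2% and 37.8% in the KO (26.8 ± 3.67, adjusted p 1.38e-07, same model). Its KO serum level was 39.1% and that of WT serum 8.16%. The tile at chromosome 1, 9536001, went from 0% and 0.909% in the WT to 21.8% and 35.9% in the KO, where the 0 of 226 calls allows up to 1.33%. The tile at chromosome 19, 11943501, stood at 20.7% and 18.2% against 42.9% and 35.8%, and was not called by limma (adjusted p 0.111). It too was unusually deep in the KO, with 434 and 254 calls against 376 and 351 in the WT. These 4 are all the called tiles with 50 or more calls in every library and no overlap of the groups.

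Marks on histones were measured only in E14, so H3K9me2 was set beside the KO and WT values as a property of the place in E14. Enrichment was the log2 ratio of bound to input calls in the 10000-bp window around a tile in ChIP bisulfite libraries, and tiles of 60% or more in E14 serum were divided into 5 groups of equal size by it. The paper describes the 2i cells of this assay as long-term 2i, so they do not match the 24 h of the methylation values. H3K9me2 ChIP-seq of 24 h 2i, also in the series, was not used for this. The WT level at 24 h hardly changed over the 5 groups by serum enrichment, from 88.3% and 88.2% in the lowest to 89.7% and 89.9% in the highest. The KO level rose from 65.9% and 65.8% to 73.6% and 73.1%. The difference of the genotypes was thus -22.4 points in the lowest group and -16.5 in the highest, and 52.2% and 28.0% of the tiles were called lower. By enrichment in 2i the difference was -21.9 points in the lowest and -14.9 in the highest group. From lowest to highest group of the 2i enrichment, the level rose by 0.225 and 0.568 points in the WT libraries and by 7.35 and 7.58 in the KO libraries, without overlap (p = 0.333 in the exact permutation test over libraries, which can go no lower).

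The groups also differed in their E14 serum level, which rose from 77.9% to 83.3% with serum enrichment and from 78.1% to 84.3% with 2i enrichment. Within tiles of 80% or more in E14 serum, the difference of the genotypes still ran from -18.7 to -14.8 points over the 5 groups by 2i enrichment, at E14 serum levels of 87.2% and 89.9%. The rise from lowest to highest group was 3.14 and 3.92 points in the KO libraries there and -0.511 and -0.177 in the WT libraries. By serum enrichment the difference in these tiles was not steady, at -18.3, -16.1, -14.8, -16.2 and -16.0 points from lowest to highest group, with rises of 3.39 and 2.41 points in the KO libraries and 0.397 and 0.832 in the WT libraries.

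**Figure D5:**
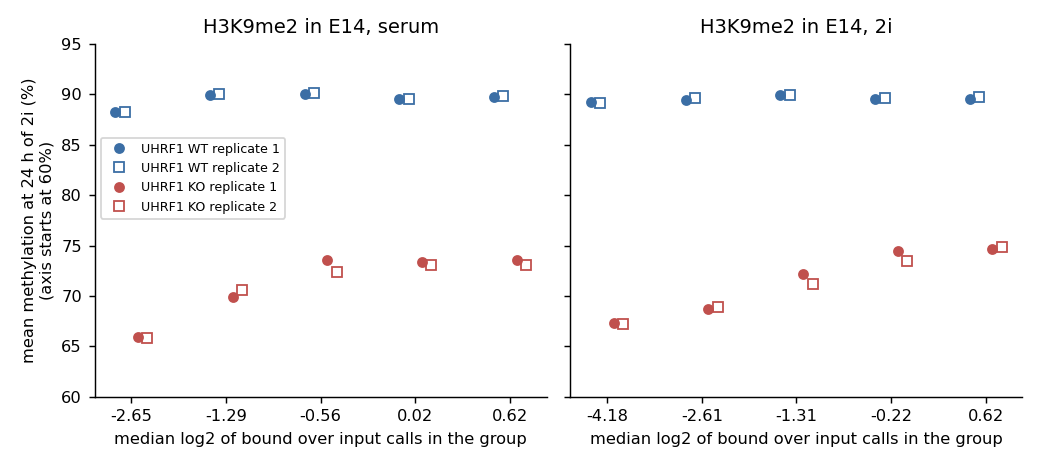
Mean methylation at 24 h of 2i in percent (vertical axis, starting at 60%) for each library, in 5 equal groups of the tiles of 60% or more in E14 serum by H3K9me2 enrichment in E14 (horizontal axis, median log2 ratio of bound to input calls of each group, with serum on the left and 2i, long-term by the paper, on the right). The KO points rise from 65.9% to 73.3% on the left and from 67.3% to 74.8% on the right, while the WT points stay between 88.2% and 90.1%.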

How the data were processed

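RRBS libraries of the UHRF1 lines were read per cytosine position. The authors aligned reads with Bismark, and the submitters' processing notes name Bismark 0.12.3 and Trim Galore 0.3.5. The deposited files give counts of methylated and of unmethylated calls for each position on build NCBIM37, next to a percent. The percent column equalled the counts and was not used. Counts were summed in 500-bp tiles of autosomes, keeping tiles with 20 or more calls and 3 or more positions in all libraries of a comparison. Library depth was 3208182 to 17678147 calls in the libraries of serum and 24 h. Serum replicate 2 of the UHRF1 WT was not used, since its file has 6 lines. H3K9me2 came from the deposited counts of ChIP bisulfite libraries, in 10000-bp windows of 50 or more input calls, leaving out positions of more than 20 calls.

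KO and WT were compared by a quasi-binomial logistic model per tile. Dispersions were moderated by squeezeVar of limma 3.58.1 in R 4.3.3, with a prior from tiles of 10% to 90% over all calls (chosen after a first fit was seen), and tested by a quasi-likelihood F test with Benjamini-Hochberg adjustment. The prior had 31.3 degrees of freedom against 2 within tiles, so a tile's own spread counted for little. Errors of tile differences come from this dispersion. Means over tiles were compared by exact two-sided permutation over libraries. The fit was tried on simulated counts, where it missed most falls of 25 points and few of 40. Far fewer tiles were lowered there than were called here, so these counts give no miss rate for the data. Alternatives were the minimum of calls and positions, the difference required, limma on log2 ratios with 1 added to each count and on percents, other dispersions, the grid, positions of more than 1000 calls, the replicate block and leaving out libraries. Named tiles were the 8 largest falls and up to 5 largest rises among called tiles of 50 or more calls without overlap, the 4 with most positions among tiles called lower of 50 or more calls, the 3 longest runs, and 5 methylated tiles highest in the KO, none on chromosome 18. The limit of a count of 0 is 3 counts of the total. Members, tests and gene lists were chosen with earlier results of these data known. Lists and promoters had been meant for an annotation of build NCBIM37. Instead, RefSeq promoter windows (GRCm38.p6) with 8 or more CpG cytosines on read positions were placed by CpG spacing. Of 21824 windows with enough such cytosines 5066 were placed, and 2 mirrored control windows.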

Additional observations from a re-analysis of the deposited data

Results flagged for a closer look

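The difference between KO and WT was itself tested for a change between times, and 14 tiles passed between serum and 24 h and 1 tile between 24 and 48 h (quasi-binomial model with an interaction term on log odds, adjusted p under 0.05 and 20 points). Limma called 0 in both. Among the 14 tiles, the single WT serum library lay more than 10 points below both WT libraries of 24 h in 9 and above both in 3, and the part of that library in these calls was not tested.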

How the results depend on the processing

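The number of tiles called at 24 h moved with the depth required and with how the spread was modelled, and the cause was not tested unless given. Against 2580 lower and 21 higher, a minimum of 10 calls gave 6871 and 48 among more tiles, and one of 50 calls gave 206 and 4 among fewer. Limma on log2 ratios gave 1717 lower, and limma on the mean percent over positions 36 and 0. Fitting all usable UHRF1 libraries over the tiles they share gave 948 and 8, each tile's own dispersion 22 and 0, and a prior from all tiles 0 and 0. Both that prior and the reported one, from tiles of 10% to 90%, were chosen after seeing the data. The higher calls were 148 with no minimum difference and 37 at 10 points. Leaving out 1 library gave 735 to 1337 lower and 8 to 17 higher. The mean difference was -8.60 at 10 calls, -0.825 at 50 calls, -1.22 with pooled calls and -4.69 to -4.50 without 1 library.

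With classes set by the UHRF1 WT serum library the gaps were -0.314, -8.98, -15.5, -22.2 and -21.2 points, from the lowest class to the highest. With 50 calls they were -0.316, -16.0, -22.7 and -14 in the classes below 20%, of 20% to 40%, of 40% to 60% and of 80% or more.

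Between serum and 24 h, the 11 tiles in which KO minus WT was lower at 24 h became 6 with 10 or 50 calls, 0 by limma and 4 to 12 without 1 library, and the 3 in which it was higher became 1 with 10 calls, 0 by limma and 1 to 4 without 1 library. Leaving out KO serum replicate 1 gave 7 and KO serum replicate 2 gave 4, and leaving out either KO library of 24 h gave 5. The 1 tile between 24 and 48 h became 0 with 10 calls, 50 calls, limma or without any 1 library.

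Replicate numbers were shared between groups, but deviations of same-numbered libraries were not correlated (r = 0.00961 across 7021 tiles, which are not independent replicates). With the replicate block 2679 tiles were called lower and 27 higher, 7 and 1 between serum and 24 h, and 4 and 1 between 24 and 48 h. The exact p of the mean difference was 0.500 with the pairing. Of the alternatives for single named tiles, 134 kept direction and side of the threshold, 10 lost the call and 3 changed sign, all in tiles that were not called. These were chromosome 13, 38288001, at 1.49 points without WT replicate 2 and 1.35 without KO replicate 1 (range without 1 library -5.25 to 1.49), and chromosome 7, 17607501, at 2.36 without KO replicate 2 (-11.4 to 2.36). Depth limits the KO values, with medians of 76 and 52 calls a tile.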
